A study of Mus musculus with 11 samples.

Results

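The nuclear-encoded subunits of the mitochondrial respiratory chain were described in whole mouse cochleae with and without ATF6, the endoplasmic reticulum stress sensor that is cleaved to an active transcription factor. Members were all genes whose symbols begin with *Ndufa*, *Ndufb*, *Ndufc*, *Ndufs* or *Ndufv* and a digit, *Uqcr*, *Cox4* to *Cox8* or *Atp5*, together with *Sdha*, *Sdhb*, *Sdhc* and *Sdhd*, leaving out symbols that end in -ps. The rule reads symbols only, though the set was chosen with earlier results of these data known. The rule took 86 of the 18667 genes in the tables: 40 of complex I, 4 of complex II, 8 of complex III, 17 of complex IV and 17 of complex V. RNA-Seq was done on cochleae of 2-month-old mice, 5 *Atf6*+/+ libraries and 6 *Atf6*-/- libraries, with 1 cochlea per library and mice of either sex. Both genotypes were littermates on the C57BL/6J background, a strain that carries an age-related hearing loss allele of *Cdh23*, and the *Atf6*-/- mice lack ATF6 in every tissue. The *Atf6* transcript was at 9.52 ± 1.11 FPKM (SD) in the 5 *Atf6*+/+ cochleae, and at 4.27 ± 0.285 FPKM (SD) in the 6 *Atf6*-/- cochleae, with no overlap between the groups. FPKM scales the fragments of a gene to the length of its transcript and to the mapped fragments of the library, so the levels of different genes can be set side by side. Because whole organs were sequenced, fewer cells of a type and less RNA per cell cannot be told apart.

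The respiratory chain moves electrons from NADH (complex I) or succinate (complex II) through coenzyme Q to complex III, then through cytochrome c to oxygen at complex IV. Complexes I, III and IV pump protons across the inner mitochondrial membrane, and complex V, the ATP synthase, uses the gradient to make ATP. The core of complexes I, III, IV and V is encoded partly by mitochondrial DNA, and the 13 mitochondrially encoded subunits were not analysed here, while complex II is nuclear-encoded throughout. In the cochlea, respiration is known to be heavy in the stria vascularis, whose ion pumps keep the potassium-rich endolymph, and in hair cells.

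Markers of the cochlea were present in the libraries: all 7 hair cell genes tested, all 7 stria vascularis genes, all 7 supporting cell genes and all 4 fibrocyte genes had a mean of at least 1 FPKM. The libraries also held RNA of tissue around the cochlea. The summed level of 9 erythroid markers was 4827 to 46393 FPKM in *Atf6*+/+ and 2870 to 9375 FPKM in *Atf6*-/- libraries, and that of 10 neutrophil markers was 287 to 3564 and 115 to 1342 FPKM. The adipocyte markers summed to 68.6 FPKM in *Atf6*+/+ replicate 4 and to 1.11 to 6.22 FPKM in the other libraries. The skeletal muscle markers summed to 65.2 FPKM in *Atf6*-/- replicate 3 and to 4.48 to 11.4 FPKM elsewhere.

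Respiratory chain subunits were among the abundant transcripts of the cochlea. All 86 members had a mean of at least 0.1 FPKM and were tested, with a median level of 168 FPKM against 8.64 FPKM over the 16169 genes tested. Together they made up 3.85% to 4.40% of the summed FPKM in *Atf6*+/+ and 3.64% to 4.22% in *Atf6*-/- libraries, ranges that overlap. The median member of complex V stood at 309 FPKM, ahead of complex III at 208, complex IV at 183, complex I at 130 and complex II at 129 FPKM. Complex II ran from 59.2 to 145 FPKM, complex III from 77.8 to 345 and complex V from 178 to 882 FPKM, while complex I ran from 0.418 to 462 and complex IV from 0.146 to 862 FPKM. The highest member was *Atp5b*, the catalytic beta subunit of ATP synthase, with a mean of 882 FPKM over the 11 libraries. It was followed by *Cox6a1* at 862 FPKM, the widely used form of a small complex IV subunit. In complex I the highest was *Ndufa3* at 462 FPKM and in complex III *Uqcr10* at 345 FPKM.

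**Figure D1:**
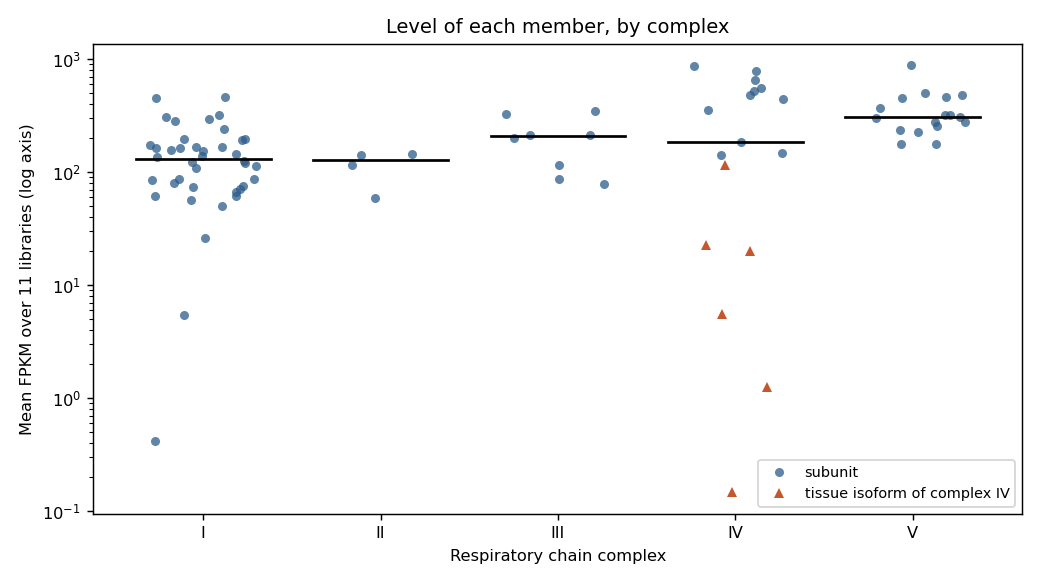
Mean FPKM of each of the 86 members over the 11 libraries on a log axis, by complex, with a bar at the median; triangles mark the 6 tissue isoforms of complex IV. Most members lie above 10 FPKM, and 5 lie below: *Ndufb4b*, *Ndufa4l2*, *Cox4i2*, *Cox6a2* and *Cox7b2*.

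Only 5 members were under 10 FPKM, and 3 of these are tissue isoforms of complex IV. *Cox7b2*, a testis form, had a mean of 0.146 FPKM and *Cox6a2*, the heart and skeletal muscle form, 1.25 FPKM. *Cox4i2*, a form best known from lung, had 5.55 FPKM, and *Ndufa4l2*, a hypoxia-inducible relative of *Ndufa4*, 5.42 FPKM. *Ndufb4b* had 0.418 FPKM and is a near-identical copy of *Ndufb4*, as is *Ndufb4c*, so the division of reads among the 3 genes is uncertain. *Cox7b2* and *Ndufb4b* were at 0 in several libraries, and no fold is given for them.

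The question here was whether the subunits differed in level between *Atf6*-/- and *Atf6*+/+ cochleae, as a set and by complex. All 86 members had a lower mean log2 level in *Atf6*-/- than in *Atf6*+/+ cochleae, as did 54.7% of all genes tested. With the values rescaled to TPM, a scale on which every library sums to the same total, the sign was negative for 75 members, and with the trend on transcript length and GC content removed it was negative for 76 of 83. The median log2 fold change of the members was -0.126, a level 8.36% lower, against -0.013 over all genes tested. No member passed an adjusted p of 0.05 (limma, Benjamini-Hochberg), where 0.068% of all genes did. A looser rule asked for a limma p, without adjustment, no higher than 0.05 and a log2 difference larger than 0.05 in size. By it, 13 of 86 members (15.1%) were lower, beside 5.37% of all genes tested. None was higher, beside 4.48% of all genes tested. Rescaling to TPM moved all genes nearly alike, by 0.056 at the median, and left the members' median 0.112 under that of all genes, the same distance as without rescaling. With that shift the calls of all genes turned from 868 lower and 724 higher to 439 and 1389, and 3 members (3.49%) were lower, beside 2.72% of all genes. With the length and GC trend removed the members' median lay 0.084 under that of all genes, and 2 members (2.41%) were lower, beside 3.26% of all genes, whose calls were 515 lower and 1222 higher. Median-of-ratios scaling gave 10 members (11.6%), beside 4.72% of all genes. The adjusted p of the 13 members ran from 0.434 to 0.505, so that none of them can be singled out at a controlled error rate. No member had groups without overlap, beside 1.25% of all genes tested.

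The difference between the genotypes was about as large as the SD between libraries of a genotype. In each library the members were set against their *Atf6*+/+ mean, and the median of these log2 differences was taken. It was -0.084, -0.138, 0.005, 0.157 and 0.052 in *Atf6*+/+ replicates 1 to 5. In the *Atf6*-/- libraries the lowest was -0.266, the median -0.118 and the highest 0.004. The pooled SD of this median between libraries of a genotype was 0.115. *Atf6*-/- replicates 5 and 6 were the lowest, with all 86 members below the *Atf6*+/+ mean in both. *Atf6*+/+ replicate 4 was the highest, with 82 members above that mean. The groups overlapped, since *Atf6*+/+ replicate 2 had 83 members below the mean, while *Atf6*-/- replicates 2 and 3 had 39 and 46 above it. The members thus moved together within a library: 39 had their lowest value in *Atf6*-/- replicate 5 and 31 in replicate 6, and 49 had their highest in *Atf6*+/+ replicate 4. This means that the 86 signs are not independent of each other. The median over all genes lay between -0.057 and 0.015 in the 11 libraries.

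**Figure D2:**
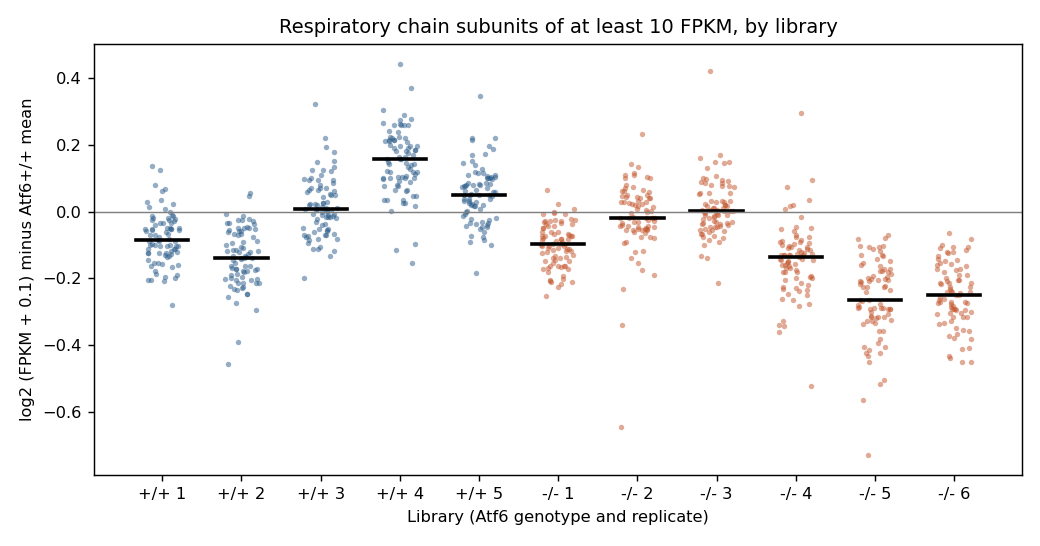
log2(FPKM + 0.1) of the 81 members of at least 10 FPKM minus the member's *Atf6*+/+ mean, by library; each point is a gene and each bar the median of the library. The points of a library shift as a block, with *Atf6*+/+ replicate 4 highest and *Atf6*-/- replicates 5 and 6 lowest, and the genotypes overlap.

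*Atf6*+/+ replicate 4, where the members were highest, was the library with the most adipocyte RNA and the lowest summed stria vascularis markers, 384 FPKM, against 529 to 834 FPKM in the other libraries. *Atf6*-/- replicates 5 and 6, where the members were lowest, had the highest stria vascularis sums, 834 and 816 FPKM. Without *Atf6*+/+ replicate 4 the median of the members was -0.086, and 2 members (2.33%) were lower at the unadjusted p, *Ndufs4* and *Uqcrh*, beside 4.77% of all genes. With *Atf6*+/+ replicate 4 and *Atf6*-/- replicate 3, the library rich in skeletal muscle RNA, both left out, a step chosen after the values were seen, the median was -0.11 and 12 of 86 members were lower, beside 5.27% of all genes. Marker counts stand beside all genes tested, of which 54.7% were lower in sign. At the unadjusted p, 5.37% of all genes were lower and 4.48% higher. All 9 erythroid markers and all 10 neutrophil markers were lower in *Atf6*-/- cochleae, 7 and 5 of them at the unadjusted p. Also lower were 8 of 9 B cell markers (3 at the unadjusted p), 3 of 3 rod photoreceptor markers (2), at 0.42 to 0.742 FPKM, 5 of 5 adipocyte markers (2), and 6 of 6 bone markers (0). Markers of the cochlea itself leaned the other way: 4 of 5 outer hair cell markers were higher, *Ocm* and *Slc26a5* at the unadjusted p, as were 5 of 7 hair cell (0), 4 of 4 fibrocyte (1), 7 of 7 stria vascularis (1) and 6 of 7 supporting cell markers (1). With a bone marrow marker score as a term of the model, the median was -0.11 and 2 members (2.33%), *Ndufs4* and the scarce *Ndufb4b*, were lower, beside 3.44% of all genes. With a skeletal muscle marker score instead, the median was -0.13 and 15 members (17.4%) were lower, beside 5.54% of all genes. The part of these tissues in the members' difference was not tested beyond these fits.

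**Figure D3:**
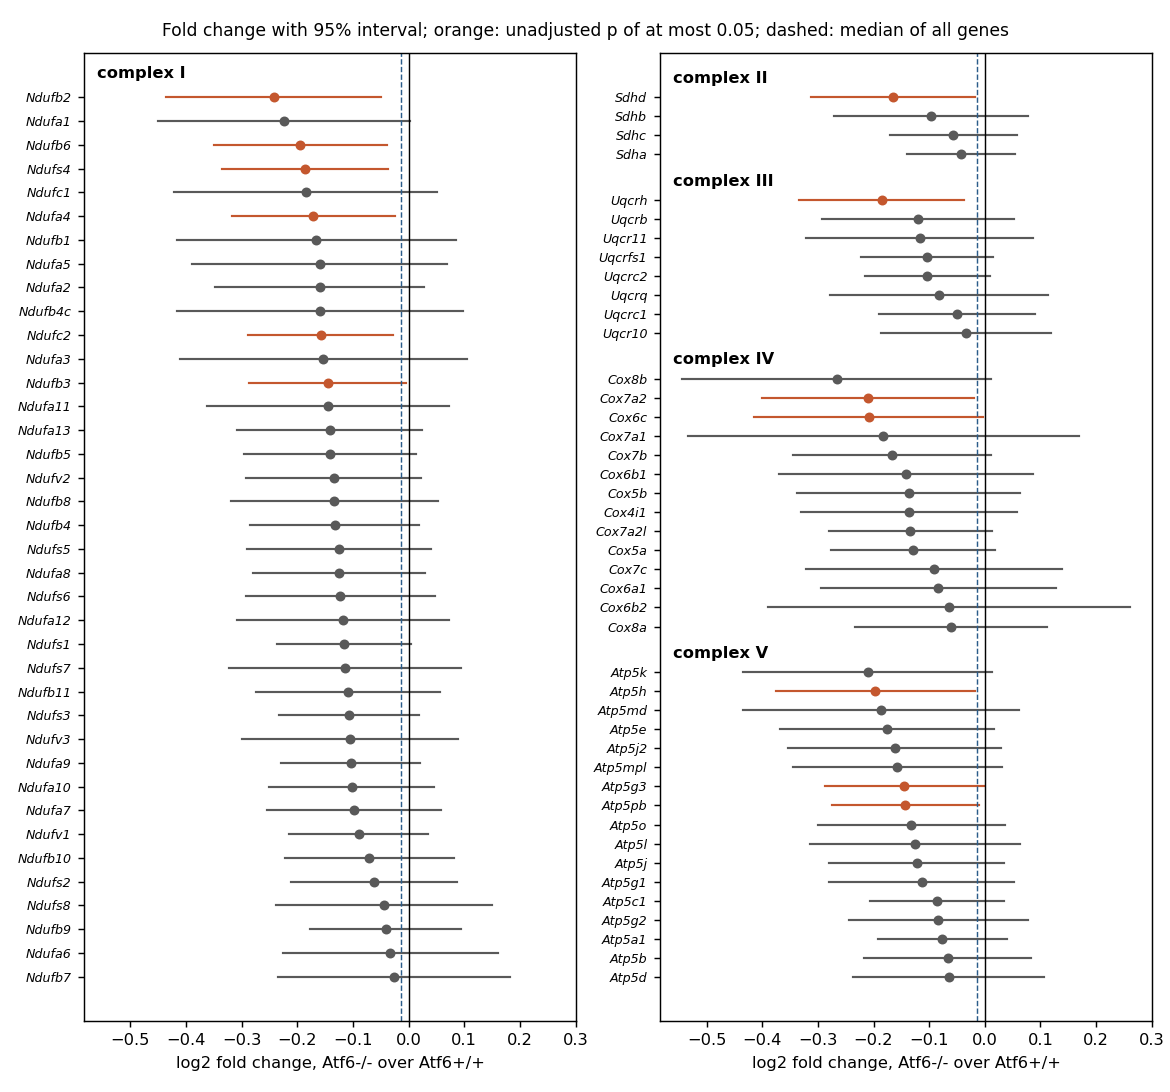
log2 fold change, *Atf6*-/- over *Atf6*+/+, with its 95% interval from limma for the 81 members of at least 10 FPKM, by complex; orange marks the 13 members at an unadjusted p of at most 0.05, and the dashed line the median of all genes tested, -0.013. All points lie left of 0, and the intervals of 13 members leave out 0.

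Complex I, the NADH dehydrogenase, had a median log2 fold change of -0.13 over its 40 members, and 6 of them were lower at the unadjusted p. The share of all genes tested was 5.37%. Of the 6, 5 are accessory subunits of complex I and the other is *Ndufa4*, described last. The median was -0.095 without *Atf6*+/+ replicate 4 and -0.061 with the length and GC trend removed. Of the 6, only *Ndufs4* stayed past the unadjusted threshold without *Atf6*+/+ replicate 4 or with the bone marrow score. Only *Ndufb2* did under TPM or with the length and GC trend removed. The 33 members outside the core had a median of -0.14 and the 7 nuclear-encoded core subunits, which carry the flavin and iron-sulfur clusters, -0.11, with none of the core at the unadjusted p. The core subunit *Ndufs1* was at -0.12 ± 0.056 (SE).

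*Ndufb2* (NCBI gene 68198), an accessory subunit of the membrane arm, was at 61.5, 57.0, 70.0, 77.3 and 70.9 FPKM in the *Atf6*+/+ libraries, and at 49.9 (lowest), 57.6 (median) and 64.6 FPKM (highest) in the *Atf6*-/- libraries. All 6 *Atf6*-/- values lay under the *Atf6*+/+ mean and 3 under every *Atf6*+/+ value. Its log2 fold change was -0.24 ± 0.089 (SE), a level 15.5% lower (exact permutation p = 0.039, limma adjusted p = 0.435).

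*Ndufb6* (NCBI gene 230075), of the same arm, was at 70.8, 65.1, 70.9, 81.0 and 71.9 FPKM in *Atf6*+/+ and at 55.2, 62.4 and 71.0 FPKM (lowest, median, highest) in *Atf6*-/- libraries. Here 4 of the 6 *Atf6*-/- libraries were under all of *Atf6*+/+, with a log2 fold change of -0.19 ± 0.072 (SE). *Ndufb3* (NCBI gene 66495), also of the membrane arm, had 64.6, 55.4, 59.5, 61.9 and 55.2 FPKM against 48.4, 55.0 and 58.2 FPKM, and 3 *Atf6*-/- libraries lay inside the *Atf6*+/+ range. Its log2 fold change of -0.15 ± 0.065 (SE) was the smallest of the 6 by size.

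*Ndufs4* (NCBI gene 17993) is an accessory subunit of the arm that takes electrons from NADH, and its loss in mice is a known model of Leigh-like encephalopathy. It was the steadiest of the 6 among *Atf6*+/+ libraries, at 27.8, 27.3, 27.6, 30.1 and 27.3 FPKM. The *Atf6*-/- libraries had 21.8, 24.2 and 27.8 FPKM (lowest, median, highest). Replicates 4, 5 and 6 were at 21.8, 22.9 and 22.8 FPKM and replicate 1 at 25.4 FPKM, all under *Atf6*+/+, and replicates 2 and 3 at 27.5 and 27.8 FPKM, inside the *Atf6*+/+ range. The log2 fold change was -0.19 ± 0.069 (SE), with an exact permutation p of 0.039.

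*Ndufc2* (NCBI gene 68197), at the membrane arm, had 174, 160, 172, 186 and 175 FPKM in *Atf6*+/+ and 146, 152 and 180 FPKM in *Atf6*-/- libraries. In 5 of the 6 *Atf6*-/- libraries it was under every *Atf6*+/+ value, and the highest, replicate 3, stood apart. The log2 fold change was -0.16 ± 0.060 (SE). *Ndufa4* (NCBI gene 17992) carries a complex I name but is known biochemically as a subunit of complex IV. It had 440, 472, 513, 500 and 475 FPKM against 385, 428 and 466 FPKM, with a log2 fold change of -0.17 ± 0.067 (SE). Its exact permutation p of 0.0281 was the smallest of the 13 members. *Ndufa3*, the member of complex I with the highest level, was at -0.15 ± 0.12 (SE) and *Ndufa4l2* at -0.053 ± 0.12 (SE), which are not distinguishable from 0. *Ndufb4b* was at 2.05, 1.45, 0, 0.65 and 0 FPKM in *Atf6*+/+ and between 0 and 0.34 FPKM in *Atf6*-/- libraries.

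Complex II, succinate dehydrogenase, also belongs to the tricarboxylic acid cycle, and its 4 subunits had a median log2 fold change of -0.076. It was -0.038 without *Atf6*+/+ replicate 4, and -0.023 with the length and GC trend removed. *Sdhd* (NCBI gene 66925), a membrane anchor that helps bind coenzyme Q, was the member lower at the unadjusted p, 1 of 4 beside 5.37% of all genes tested. It had 62.7, 57.7, 68.3, 71.2 and 55.2 FPKM in *Atf6*+/+ and 53.0, 55.5 and 61.3 FPKM in *Atf6*-/- libraries. The *Atf6*+/+ libraries spread more widely (SD 6.78 FPKM, n = 5) than the *Atf6*-/- libraries (SD 2.95 FPKM, n = 6), and *Atf6*+/+ replicates 2 and 5 lay among the latter. The log2 fold change was -0.17 ± 0.068 (SE). The iron-sulfur subunit *Sdhb* was at 150 ± 17.0 FPKM (SD, n = 5) against 140 ± 12.2 FPKM (SD, n = 6), and the other anchor *Sdhc* at 118 ± 7.12 and 114 ± 6.40 FPKM. The catalytic flavoprotein *Sdha* was at 145 ± 4.31 and 141 ± 7.25 FPKM. Its 95% interval, -0.14 to 0.055 on the log2 scale, leaves room for a difference of either sign.

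Complex III, which passes electrons from coenzyme Q to cytochrome c, had a median log2 fold change of -0.10 over 8 members, 1 of them (12.5%) lower at the unadjusted p, beside 5.37% of all genes tested. Without *Atf6*+/+ replicate 4 it was -0.058, and with the length and GC trend removed -0.024. *Uqcrh* (NCBI gene 66576), the hinge protein beside cytochrome c1, had 216, 207, 244, 243 and 234 FPKM in *Atf6*+/+ and 182, 201 and 220 FPKM in *Atf6*-/- libraries. In 4 of the 6 *Atf6*-/- libraries it was under every *Atf6*+/+ value. Its log2 fold change was -0.19 ± 0.068 (SE), a level 12.1% lower, and its limma p of 0.0179 was the smallest of all members (adjusted p = 0.434). The core protein *Uqcrc2* was at 121 ± 3.32 FPKM (SD, n = 5) against 113 ± 7.81 FPKM (SD, n = 6). This log2 difference of -0.10 ± 0.052 (SE) missed the unadjusted threshold, with a limma p of 0.0672, beside an exact permutation p of 0.0498 without adjustment. The small subunits *Uqcrq*, the lowest of the complex, and *Uqcr10*, the highest, were at -0.082 ± 0.090 and -0.033 ± 0.070 (SE), both within their errors. The sign for *Uqcr10* was positive under TPM, a rescaling that moved all genes nearly alike, by 0.056 at the median.

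The promoters of the 4 members with the smallest p are shown as a description, and their part in the levels was not tested. NRF1, ETS factors such as GABP, and YY1 are known activators of respiratory chain genes. Each stretch holds the 120 bases before the start site, 5′ to 3′ on the gene's strand, from RefSeq on GRCm38.p6, which is not the build of the expression tables. Capitals mark a match to the ETS letters CCGGAAGT on the opposite strand.
*Uqcrh*, chr4:116075071-116075190, minus strand: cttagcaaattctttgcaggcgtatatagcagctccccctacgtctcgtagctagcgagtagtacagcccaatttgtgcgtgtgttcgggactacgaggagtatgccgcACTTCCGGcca
*Ndufb2*, chr6:39592445-39592564, plus strand: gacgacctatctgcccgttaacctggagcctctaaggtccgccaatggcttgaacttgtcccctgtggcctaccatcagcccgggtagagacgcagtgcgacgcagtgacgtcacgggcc
*Ndufb6*, chr4:40279422-40279541, minus strand: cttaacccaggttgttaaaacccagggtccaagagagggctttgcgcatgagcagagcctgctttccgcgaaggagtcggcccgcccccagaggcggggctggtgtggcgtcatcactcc
*Ndufs4*, chr13:114388095-114388214, minus strand: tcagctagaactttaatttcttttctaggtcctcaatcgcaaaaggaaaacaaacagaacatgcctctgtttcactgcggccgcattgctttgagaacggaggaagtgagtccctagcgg

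Promoter windows from 250 bases before to 50 bases after the start were found for 70 of the 86 members (75 windows) and for 12726 of the genes tested (16199 windows), and were searched on both strands for exact letters. The NRF1 letters GCGCATGCG stood in 10.7% of member windows and 2.94% of all windows, and the YY1 letters AAGATGGCG in 9.33% and 2.36%. The ETS letters were in 6.67% and 6.50%. The 8 genes with the NRF1 letters were *Atp5g2*, *Atp5k*, *Atp5l*, *Cox6a1*, *Ndufa11*, *Ndufa8*, *Uqcr11* and *Uqcrc1*, none of which is among the 13 members at the unadjusted p. Among those 13, *Uqcrh* and *Atp5h* held the ETS letters, and *Ndufs4* the YY1 letters 36 bases after its start, outside the stretch shown. The letters TTGCATCA, from the composite site of ATF4 and C/EBP proteins, and TGACGTGG, from the unfolded protein response element bound by ATF6 and XBP1, were in no member window and in 0.605% and 0.827% of all windows. At shares this low, finding none in 75 windows cannot set the members apart from all genes. No other letters were searched for ATF4 or ATF6. All of these are matches of letters and show no binding.

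Complex IV, cytochrome c oxidase, had a median log2 fold change of -0.14 over 17 members, and 2 (11.8%) were lower at the unadjusted p, beside 5.37% of all genes tested. Neither stayed past that threshold under TPM, with the length and GC trend removed, with the bone marrow score or without *Atf6*+/+ replicate 4. The median was -0.083 without *Atf6*+/+ replicate 4, -0.19 without *Atf6*+/+ replicate 2 and -0.071 with the length and GC trend removed. The 6 tissue isoforms had a median of -0.12 and the other 11 members -0.14. *Cox7a2* (NCBI gene 12866), the widely expressed form of a small membrane subunit, had 137, 139, 169, 166 and 155 FPKM in *Atf6*+/+ and 114, 133 and 151 FPKM in *Atf6*-/- libraries. *Atf6*+/+ replicates 1 and 2 lay among the *Atf6*-/- values. The log2 fold change was -0.21 ± 0.088 (SE), and the exact permutation p was 0.0563. *Cox6c* (NCBI gene 12864), another small subunit, had 447, 436, 483, 521 and 516 FPKM against 354, 416 and 478 FPKM. Its *Atf6*-/- libraries formed a high and a low set, replicates 1, 2 and 3, at 450 to 478 FPKM, and replicates 4, 5 and 6, at 354 to 382 FPKM, under all of *Atf6*+/+. The log2 fold change was -0.21 ± 0.095 (SE), with an exact permutation p of 0.0714.

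Among the forms of the catalytic surroundings, *Cox4i1*, the regulatory subunit of most tissues, was at -0.14 ± 0.089 (SE), *Cox6b1* at -0.14 ± 0.11 and *Cox6a1* at -0.084 ± 0.097, none past the unadjusted threshold. *Cox8b*, a heart and muscle form, had 115, 91.9, 120, 172 and 147 FPKM in *Atf6*+/+ and only 95.1 to 109.9 FPKM in *Atf6*-/- libraries. The SD was 30.8 FPKM (n = 5) in the first group and 6.10 FPKM (n = 6) in the second. The highest value was that of *Atf6*+/+ replicate 4, the library with the most adipocyte RNA. The log2 fold change of *Cox8b*, -0.27 ± 0.13 (SE), had a limma p of 0.0585 (adjusted p = 0.505). *Cox7b2* was at 0.11 to 0.35 FPKM in *Atf6*+/+ and at 0 to 0.23 FPKM in *Atf6*-/- libraries.

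Isoform pairs were compared as ratios within a library, which do not depend on that library's scaling. In the cochlea the widely expressed form prevailed in all pairs of complex IV. *Cox8b* made up a median 12.4% of *Cox8a* and *Cox8b* together, *Cox7a1*, the heart and muscle form, 13.6% of its pair with *Cox7a2*, and *Cox6b2*, a testis form, 2.95% of its pair with *Cox6b1*. *Cox4i2* made up 0.966% of its pair with *Cox4i1*, *Cox6a2* 0.0901% of its pair with *Cox6a1*, and *Ndufa4l2* 1.24% of its pair with *Ndufa4*. None of the 8 ratios, 2 of complex V included, passed a test between genotypes (exact two-sided permutation tests, smallest adjusted p = 0.693 over 8 pairs). The nearest was *Cox8b* over *Cox8a*, 0.21 lower on the log2 scale in *Atf6*-/-, at -2.67 ± 0.24 (SD, n = 5) and -2.88 ± 0.11 (SD, n = 6), with an exact p of 0.0866. The *Cox6a2* share reached its highest value, 0.616%, in *Atf6*-/- replicate 3, the library rich in skeletal muscle RNA, where *Cox7a1* was also at its highest, 31.7 FPKM.

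Complex V had a median log2 fold change of -0.13 over 17 members, and 3 (17.6%) were lower at the unadjusted p, where 5.37% of all genes tested were. Under TPM only *Atp5h* stayed past that threshold. None of the 3 did with the length and GC trend removed, with the bone marrow score or without *Atf6*+/+ replicate 4. The median was -0.099 without *Atf6*+/+ replicate 4 and -0.065 with the length and GC trend removed. By part of the enzyme, the 5 genes of the F1 head and central stalk had a median of -0.076, the 4 of the peripheral stalk -0.14, the 3 of the c ring -0.11 and the 5 other membrane genes -0.16. Of the 3, *Atp5h* (subunit d) and *Atp5pb* (subunit b) belong to the peripheral stalk, which holds the head still against the turning ring. *Atp5h* (NCBI gene 71679) had 348, 362, 411, 426 and 447 FPKM in *Atf6*+/+ and 310, 354 and 392 FPKM in *Atf6*-/- libraries, a log2 fold change of -0.20 ± 0.083 (SE). *Atp5pb* (NCBI gene 11950) had 181, 180, 196, 192 and 188 FPKM against 152, 171 and 188 FPKM, a log2 fold change of -0.14 ± 0.061 (SE). The *Atf6*+/+ libraries were tight for *Atp5pb* (SD 6.86 FPKM, n = 5), and 4 *Atf6*-/- libraries lay under all of them. For *Atp5h* only *Atf6*-/- replicates 5 and 6 did.

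*Atp5g3* (NCBI gene 228033) is 1 of 3 genes that encode the same mature c subunit of the rotating ring. It had 312, 322, 319, 383 and 357 FPKM in *Atf6*+/+ and 291, 297 and 330 FPKM in *Atf6*-/- libraries, a log2 fold change of -0.15 ± 0.066 (SE, exact permutation p = 0.039). Of its fellows, *Atp5g1* was at 293 ± 32.5 FPKM (SD, n = 5) against 270 ± 18.8 FPKM (SD, n = 6), and *Atp5g2* at 232 ± 25.2 against 218 ± 15.6 FPKM, with log2 fold changes of -0.11 ± 0.076 and -0.083 ± 0.074 (SE). *Atp5g1* made up a median 46.8% of its pair with *Atp5g3*, and *Atp5g2* 41.5%, so all 3 genes were used at like levels. In the head, *Atp5b* was at 904 ± 60.0 and 863 ± 52.0 FPKM, with a log2 fold change of -0.067 ± 0.069 (SE). *Atp5k*, *Atp5md*, *Atp5j2*, *Atp5mpl* and *Atp5l*, small proteins of the membrane sector, lay between -0.21 and -0.13, and none passed the unadjusted threshold.

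**Figure D4:**
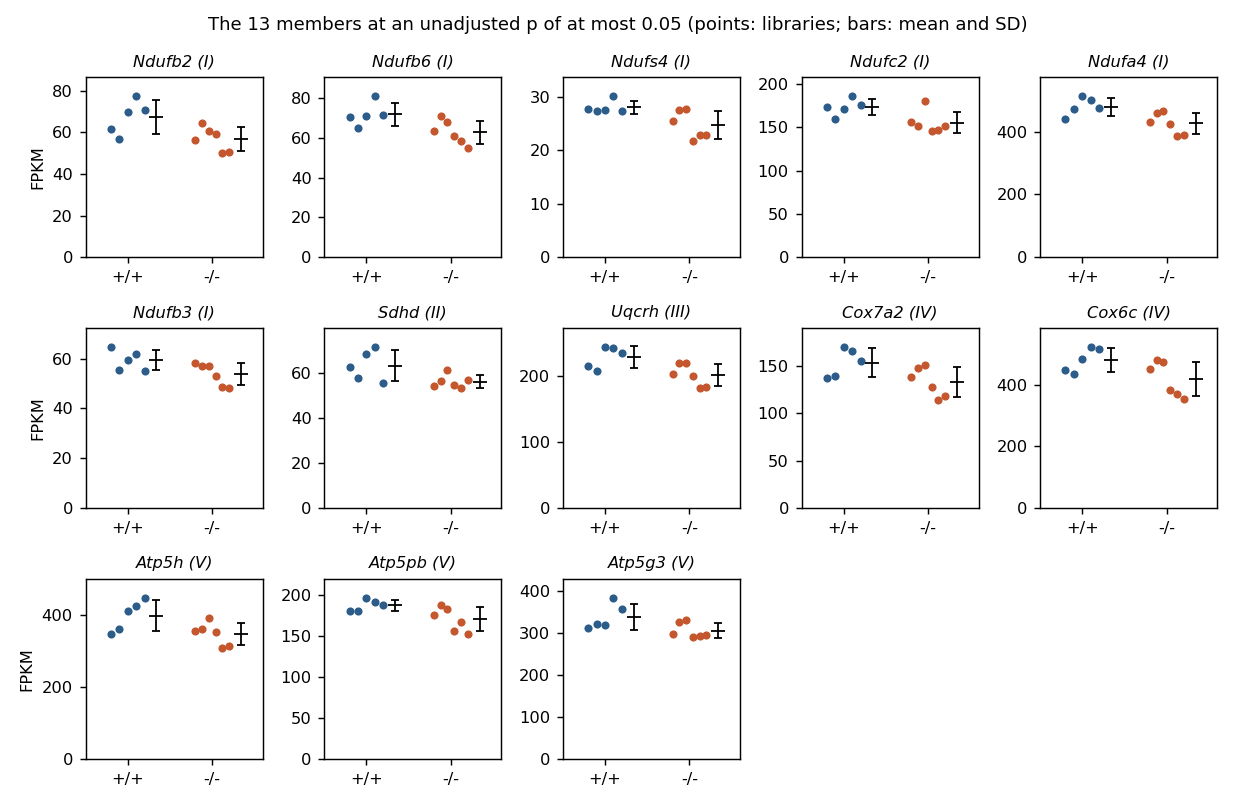
FPKM of the 13 members at an unadjusted p of at most 0.05 in each library, in replicate order within a genotype, with the mean and SD beside the points (n = 5 *Atf6*+/+, n = 6 *Atf6*-/-); axes start at 0. The groups overlap in all 13, and the distance between the means is small beside the level.

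All 6 *Atf6*-/- libraries lay under the *Atf6*+/+ mean for 27 of the 86 members, beside 11.8% of all genes tested: 13 of complex I, 1 of complex II, 2 of complex III, 6 of complex IV and 5 of complex V. For 18 members the standard error was larger than the difference. The exact permutation p of the 13 members at the unadjusted p ran from 0.0281 to 0.0714, where the smallest that 5 against 6 libraries allow is 0.00216.

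Genes that build and supply the chain were described beside the subunits, from lists chosen by function. Of 126 genes listed, 110 were tested; their median log2 fold change was -0.043, and 13 (11.8%) were lower and 1 higher at the unadjusted p, beside 5.37% and 4.48% of all genes. None passed the adjusted threshold. The 56 assembly factors had a median of -0.054, with 43 lower in sign and 7 (12.5%) at the unadjusted p. They were *Tmem126b* for complex I (-0.21 ± 0.092, SE), *Lyrm7*, which helps insert the Rieske protein of complex III (-0.23 ± 0.073), *Sdhaf3* and *Sdhaf4* of complex II (-0.28 ± 0.12 and -0.24 ± 0.090), and *Coa6*, *Cmc1* and *Pet100* of complex IV (-0.31 ± 0.10, -0.21 ± 0.075 and -0.25 ± 0.10). By complex the medians were -0.053 for 17 complex I factors, -0.11 for 10 complex II and III factors, -0.045 for 23 complex IV factors and -0.023 for 6 complex V factors.

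The 18 genes of electron carriers and coenzyme Q synthesis had a median of -0.057, with *Coq7* and *Coq3*, enzymes of the coenzyme Q ring, at -0.20 ± 0.062 and -0.21 ± 0.088 (SE), and *Etfa*, which brings electrons from fatty acid oxidation, at -0.15 ± 0.049. Cytochrome c itself (*Cycs*) was at -0.12 ± 0.083 and *Cyc1*, cytochrome c1 of complex III, which the symbol rule does not take, at -0.037 ± 0.054. The 18 enzymes of the tricarboxylic acid cycle and pyruvate oxidation had a median of -0.029, with *Dld*, *Pdhb* and *Sucla2* at -0.15 ± 0.060, -0.12 ± 0.049 and -0.13 ± 0.059. Citrate synthase (*Cs*), often used as a measure of mitochondrial content, was at 128 ± 9.18 FPKM (SD, n = 5) against 127 ± 6.81 FPKM (SD, n = 6). The 18 regulators of mitochondrial biogenesis had a median of 0.015. *Pprc1*, a coactivator related to PGC-1, was higher at the unadjusted p, at 6.34 ± 0.377 and 7.12 ± 0.292 FPKM. *Ppargc1a*, *Nrf1*, *Gabpa* and *Tfam* were at 0.076 ± 0.10, -0.017 ± 0.069, 0.081 ± 0.10 and -0.027 ± 0.070 (SE), all within their errors.

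Set beside ribosomal protein genes and short transcripts, the members had the lower median. These sets were not matched in level. The median level was 168 FPKM for the members, 28.3 FPKM for mitochondrial and 352 FPKM for cytosolic ribosomal protein genes. Mitochondrial ribosomal protein genes (78) stood at a median of -0.054 on the log2 scale, 6 of them (7.69%) lower at the unadjusted p, and cytosolic ribosomal protein genes (82 tested) at -0.071, with 1 (1.22%), beside 5.37% of all genes. In sign, 63 of the 78 and 71 of the 82 were lower in *Atf6*-/- cochleae, which is 80.8% and 86.6%, so a lean to lower values was shared by both sets. The members' transcripts had a median length of 596 bases against 1514 over all genes. The 5292 genes with transcripts of at most 1000 bases had a median of -0.027, and the 3185 of these with at least 10 FPKM had -0.018. The median of the members was -0.060 with the length and GC trend removed, where that of all genes was 0.024, and -0.069 under TPM, where that of all genes was 0.043.

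**Figure D5:**
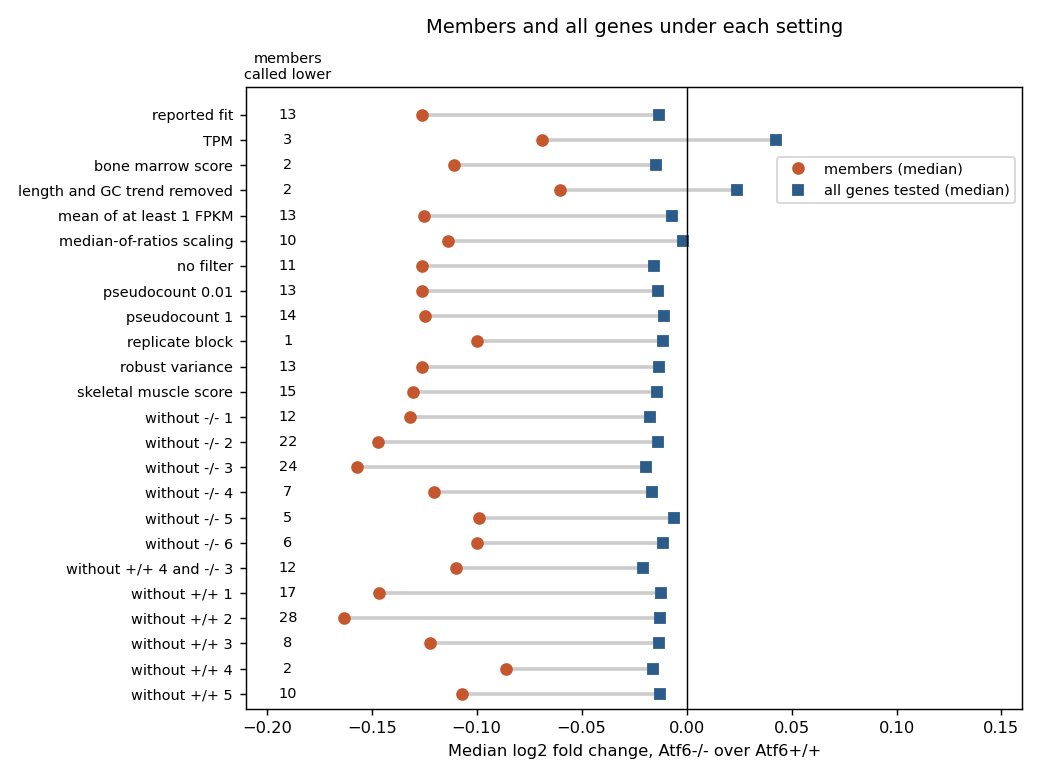
Median log2 fold change, *Atf6*-/- over *Atf6*+/+, of the members (circles) and of all genes tested (squares) for the reported fit and each alternative, with the number of members lower at an unadjusted p of at most 0.05 at the left. The members' median is under that of all genes in every fit shown, and the count runs from 1 to 28.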

How the data were processed

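Whole-cochlea RNA (5 *Atf6*+/+ and 6 *Atf6*-/- libraries) was sequenced from stranded mRNA libraries on the DNBSEQ platform. The authors aligned reads to GRCm39 with HISAT2 2.0.4 and deposited FPKM values per gene from RSEM (version 1.2.12 per the submitters' processing notes; the methods name a later release). Tests by the authors used DESeq2 1.4.5. Counts of reads were not analysed; the methods give a nominal depth, and the counting error behind a value is unknown, and FPKM sums ran from 462005 to 537926 per library.

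Tables were joined by gene identifier. The 16169 genes whose mean over the libraries reached 0.1 FPKM were fitted as log2(FPKM + 0.1) with limma 3.58.1 in R 4.3.3, with a mean-variance trend and genotype as the only term, two-sided, with Benjamini-Hochberg adjustment over all of them. Because 0.1 is added, fold changes understate those of low genes. Each library is an individual cochlea, and whether any share a mouse is not given in the sources used here, so p-values measure the spread between these libraries. Single genes and isoform ratios were compared by exact two-sided permutation over 462 splits. The fit was tested on simulated data in which genes varied independently, and the permutation test on fixed values with a known answer.

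Genes named are members at the unadjusted p (at most 6 per complex), the highest and lowest member and the 2 with the smallest p of each complex, all of complex II, the isoform pairs, *Atf6*, and up to 3 genes per pathway list at the unadjusted p. A few regulators and carriers were named besides, after their values were seen: *Cycs*, *Cyc1*, *Cs*, *Ppargc1a*, *Nrf1*, *Gabpa*, *Tfam*, *Ndufs1*, *Ocm*, *Slc26a5*, the membrane genes of complex V, and genes holding a motif. Members and lists were chosen with earlier results of these data known. Alternatives were pseudocounts of 1 and 0.01, no filter, a minimum of 1 FPKM, robust variance, TPM, scaling by median of ratios, the replicate number as a block, removal of a length and GC trend, bone marrow and skeletal muscle scores, and leaving out each library. Transcript lengths came from GENCODE annotation of GRCm38 for 83 of 86 members.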

Additional observations from a re-analysis of the deposited data

Results flagged for a closer look

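In 84 groups of values examined (the named members and the library medians, in each genotype), 4 held a library that stood apart from the rest of its group by Dixon's criterion, where chance gives about 1 in 20 groups. *Ndufs4* was at 30.08 FPKM in *Atf6*+/+ replicate 4, with the next value at 27.76 FPKM. The other 3 were in *Atf6*-/- replicate 3, the library with the most skeletal muscle RNA. *Ndufc2* was at 179.94 FPKM there, with the next value at 156.48 FPKM, and *Cox6a2*, the heart and muscle form, at 5.55 FPKM, with the next at 1.19 FPKM. *Ndufb4b* was at 0.34 FPKM, with the next at 0.11 FPKM, levels too low to rank.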

How the results depend on the processing

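No member passed the adjusted threshold under any alternative, and the median of the members was negative in all of them. The count of members lower at the unadjusted p, 13, was 3 under TPM, 2 with the bone marrow score, 2 with the length and GC trend removed and 1 with the replicate block. These are 3.49%, 2.33%, 2.41% and 1.16% of the members, beside 2.72%, 3.44%, 3.26% and 4.07% of all genes. The count ran from 2 (without *Atf6*+/+ replicate 4) to 28 (without *Atf6*+/+ replicate 2) when a library was left out, with 22 and 24 without *Atf6*-/- replicates 2 and 3, 8 without *Atf6*+/+ replicate 3, and 7, 5 and 6 without *Atf6*-/- replicates 4, 5 and 6, beside 3.83% to 6.03% of all genes in these fits. The cause was not tested. Replicate numbers did not pair the libraries (correlations of deviations from -0.21 to 0.12), so the block rests on shared numbers only. The block also takes *Atf6*-/- replicate 6, which has no partner, out of the comparison: the median was -0.10 in both that fit and the one without this library. Over the named members and isoform ratios, 749 values kept their sign and their side of the unadjusted threshold, 100 kept the sign but lost the threshold, 9 gained it and 40 changed sign.

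None of the 13 changed sign, but 7 other named members, all short of the unadjusted threshold, did. Under TPM, which adds 0.056 to the median of all genes, *Ndufa4l2* was at 0.0033, *Sdhc* at 0.00047, *Sdha* at 0.014, *Uqcr10* at 0.023, *Cox4i2* at 0.012 and *Cox6a2* at 0.036. With the length and GC trend removed, *Sdha* was at 0.014, *Uqcr10* at 0.045, *Cox6b2* at 0.0037 and *Cox6a2* at 0.043. Without *Atf6*+/+ replicate 4 and *Atf6*-/- replicate 3, *Uqcr10* was at 0.0027 and *Cox4i2* at 0.017. *Cox6a2* was at 0.47 with the bone marrow score, 0.0016 with median-of-ratios scaling, 0.060 with a pseudocount of 1 and 0.17 with the replicate block. Leaving out a library gave -0.10 to 0.058 for *Ndufa4l2*, -0.072 to 0.020 for *Uqcr10*, -0.14 to 0.069 for *Cox6b2*, -0.19 to 0.13 for *Cox4i2* and -0.52 to 0.25 for *Cox6a2*. The log2 ratio differences ran from -0.0016 to 0.24 for *Cox4i2* over *Cox4i1*, -0.47 to 0.35 for *Cox6a2* over *Cox6a1*, -0.055 to 0.15 for *Cox7a1* over *Cox7a2* and -0.0053 to 0.068 for *Atp5g1* over *Atp5g3*.

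Read counts were not used and the methods give only a nominal depth, so counting error could not be separated from the spread between libraries, and members near 0 FPKM cannot be ranked.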
